A study of Mus musculus with 6 samples.

Results

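The genes described here encode the glutamate receptors, ionotropic and metabotropic, and the subunits of the GABA-A, glycine and nicotinic acetylcholine receptors. They were chosen by gene symbol alone (Gria, Grik, Grin, Grid, Grm, Gabr, Glra, Glrb and Chrn), and 66 of the 24062 symbols in the deposited table met that rule, in 10 receptor classes. RNA sequencing was carried out on auditory nerve dissected out of the cochlea of young adult mice of strain C57BL/6. The 3 wildtype libraries and the 3 libraries from mice deficient in Vcan, the gene of the matrix proteoglycan versican, each came from 1 mouse whose pair of cochleae were pooled. The labels give the same strain for both groups and do not state which part of Vcan was altered or in which cells.

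Fast excitation in the nervous system runs mostly through AMPA, kainate and NMDA receptors, which are tetramers gated by glutamate, while metabotropic glutamate receptors signal through G proteins. GABA-A, glycine and nicotinic acetylcholine receptors are pentamers of one gene family; the first pair pass chloride and the last passes cations. In the cochlea the inner hair cell releases glutamate onto AMPA receptors of the spiral ganglion neuron, whose axon runs in the auditory nerve. Efferent fibres from the brainstem release acetylcholine onto a nicotinic receptor of hair cells built from the Chrna9 and Chrna10 subunits.

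Each library held between 74530860 and 92513887 counts, and the receptor genes took 0.0992% to 0.147% of them, or 88001 to 120032 counts. Levels are given as CPM, that is counts scaled to library size by TMM; where genes are compared with each other, as CPM per kilobase of annotated exon. Vcan stood at 8.37, 9.61 and 7.32 CPM in wildtype replicates 1, 2 and 3 and at 5.44, 2.70 and 2.88 CPM in the knockout replicates. Its groups did not overlap, and the log2 fold change of -1.20 did not pass edgeR's quasi-likelihood test (adjusted p = 0.558) but passed DESeq2's Wald test (adjusted p = 0.0334). Wildtype replicate 3 stood apart: its log2 CPM correlated with the other libraries at 0.951 to 0.959 across genes, against 0.961 to 0.988 for the other pairs. The summed level of 20 spiral ganglion neuron markers was 8584 CPM in that library and 14353 to 16304 CPM in the others. The neurofilament gene Nefl, a marker of these neurons, was at 1021 to 1700 CPM in every library. In dissected tissue, fewer cells of a type and less RNA per cell cannot be told apart.

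No receptor gene passed the test between knockout and wildtype. Of the 66 genes, 54 had enough counts in enough libraries to be tested. The quasi-likelihood test of edgeR called 0 of them, where it called 0.138% of all 16722 genes tested. The lowest adjusted p over the receptor genes was 0.816 in edgeR, 0.256 in DESeq2 and 0.272 in the authors' deposited table, so no call was made there either, where 1.39% of all genes were called by DESeq2 and 1.34% in the authors' deposited table. None passed limma-voom. At an unadjusted p under 0.05, edgeR gave 3 of 54 receptor genes, where 5.2% of all genes met it; these were Gria1, Gabrg1 and Chrne, all lower in the knockout, as were 2.64% of all genes. DESeq2 gave 6 at its unadjusted threshold, which 5.88% of all genes met. In edgeR the adjusted p was 0.816 for Gabrg1, 0.831 for Chrne, 0.891 for Gria1, 0.979 for Chrna9 and 1.00 for every other receptor gene. The median log2 fold change over the 54 genes was -0.10, beside -0.0061 over all genes tested, with 25 positive and 29 negative values where 48.9% of all genes were positive; without wildtype replicate 1 that median was 0.23. The receptor genes were measured with less precision than most: their median standard error was 0.44 on the log2 scale against 0.24 over all genes, and their median 95% interval reached 1.05 to either side. For 14 of the 54 the whole interval lay within a doubling or a halving, so a change of that size was outside it; 64.4% of all genes met the same bound.

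**Figure D1:**
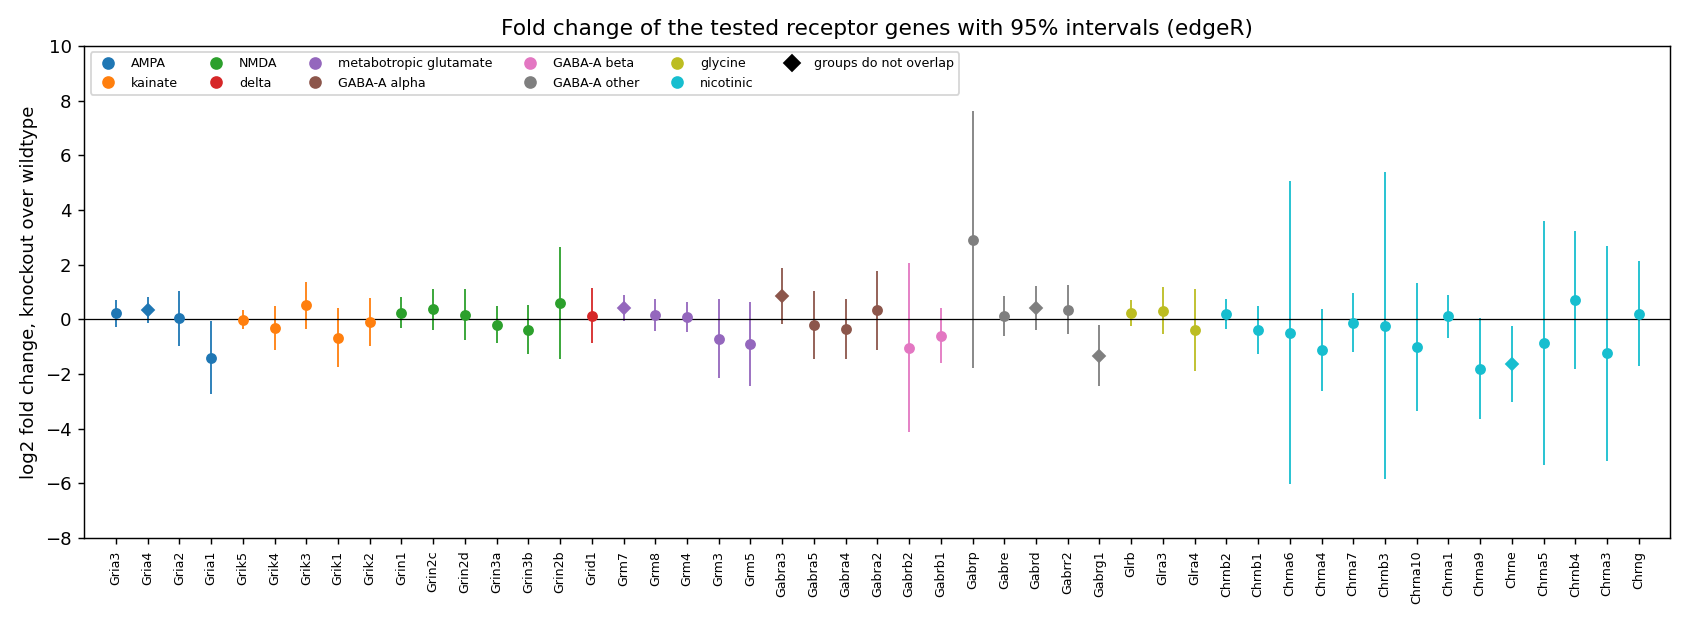
Log2 fold change of knockout over wildtype (vertical axis) for tested receptor genes (horizontal axis), coloured by class, with 95% intervals from edgeR as bars and diamonds where the groups do not overlap. Of the genes drawn, only the intervals of Gria1, Gabrg1 and Chrne do not reach 0, and none of these 3 passed after adjustment over 16722 genes.

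Libraries of the same genotype differed from each other in the level of the median receptor gene. Measured against the wildtype mean, the median receptor gene stood at 0.44, 0.08 and -0.44 on the log2 scale in wildtype replicates 1, 2 and 3 and at 0.32, -0.33 and -0.40 in knockout replicates 1, 2 and 3. Replicate 1 was the highest library of each group, the groups overlapped, and the pooled SD within groups was 0.42. Over all genes the same medians stayed between -0.0118 and 0.0164. The summed receptor level did not follow the medians. It was 314, 279 and 256 CPM per kilobase in the wildtype libraries and 315, 310 and 313 in the knockout libraries. Wildtype replicate 1 was the highest library for 22 of the 54 genes, where it was the highest for 13.5% of all genes, and wildtype replicate 3 was the lowest for 26, where it was the lowest for 28.6%. The groups did not overlap for 6 of 54 receptor genes, beside 10.3% of all genes: 4 of them, Gabra3, Gabrd, Gria4 and Grm7, were higher in every knockout library (5.42% of all genes), and 2, Gabrg1 and Chrne, were lower (4.93% of all genes).

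Per kilobase, the order of mean levels began with Glrb at 139 CPM, then Grin1 at 26 CPM, Gria3 at 23.4 CPM, Gria4 at 19.5 CPM and Grik5 at 12.3 CPM. Glrb exceeded every other receptor gene in all 6 libraries, with its lowest library at 111 CPM per kilobase and the highest of Grin1 at 34.4. Grin1 ranged over 18.4 to 34.4 CPM per kilobase, Gria3 over 15.8 to 26.6 and Gria4 over 12.4 to 22.2, so their ranges over the libraries overlapped. Within each of the 6 libraries Gria3 was above Gria4, and Grin1 was above Gria4; no test was run on this order. Grm7 at 9.23, Chrnb2 at 8.11 and Gria2 at 7.97 CPM per kilobase were among those that followed and overlapped one another. Grm7 and Chrnb2 changed places when the longest transcript replaced the union of exons. Many subunits were close to 0. The 12 genes that the count filter left out were Gabra6, Gabrg3, Gabrq, Gabrr1, Gabrr3, Glra1, Glra2, Grm2, Grm6, Chrna2, Chrnd and Grin2a. They had 5 to 126 counts over all 6 libraries. The 126 counts were those of Gabra6, nearly all in replicate 2 of each group. A library with 0 counts allows up to 0.0325 to 0.0395 CPM, a limit that covers counting error only.

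**Figure D2:**
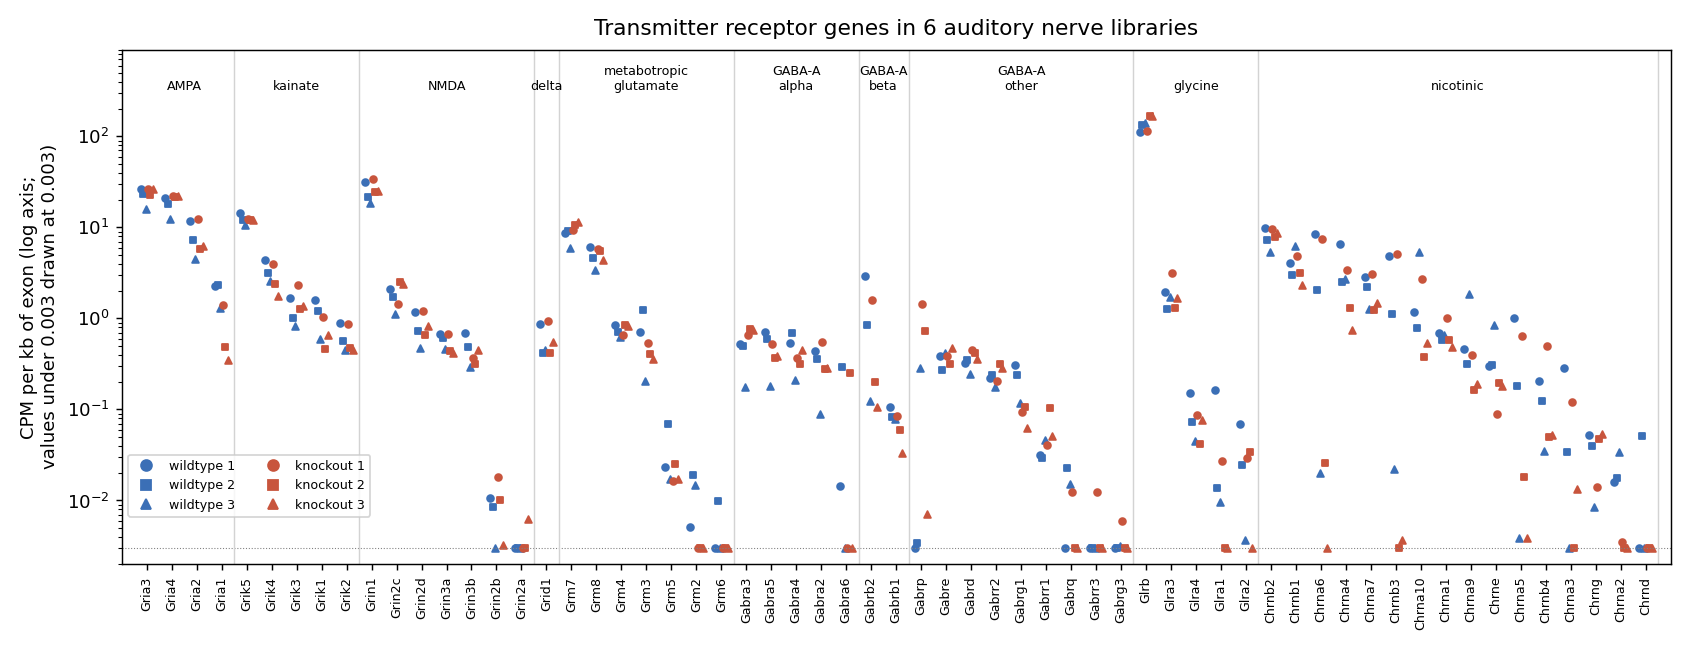
Level of receptor genes in CPM per kilobase of exon on a log axis, 1 point per library, wildtype and knockout in separate colours, by receptor class. Glrb lies above every other gene drawn, and the points of the lower GABA-A and nicotinic genes spread over several orders of magnitude.

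AMPA receptor RNA was carried by Gria3 and Gria4, with less Gria2 and little Gria1. Gria3, the GluA3 subunit, at chrX:41400854-41678601 on the plus strand of GRCm38, measured 142, 125 and 85.7 CPM in the wildtype libraries and 145, 123 and 142 CPM in the knockout. Only wildtype replicate 3 lay below the rest, and the log2 fold change was 0.22 (SE 0.20, 95% interval -0.27 to 0.71). Gria4, the GluA4 subunit of fast gating receptors, at chr9:4417896-4796234 on the minus strand, stood at 133, 114 and 78.3 CPM and at 138, 136 and 140 CPM. Every knockout library lay above every wildtype library, and the knockout libraries had an SD of 1.97 CPM around their mean of 138 CPM. However, the log2 fold change of 0.35 (SE 0.20, 95% interval -0.14 to 0.83) was 0.15 without wildtype replicate 3. Gria2, whose edited subunit keeps the channel closed to calcium, gave 124, 77 and 46.7 CPM in the wildtype and 129, 60.5 and 64.9 CPM in the knockout. Its high libraries were replicate 1 of each group, and the groups overlapped (log2 fold change 0.04). As shares of the summed AMPA level per kilobase, Gria3 took 42.6% to 47.7%, Gria4 34.5% to 42.7% and Gria2 11.3% to 19.7% across the 6 libraries. Gria1, the GluA1 subunit, was low at 13.1, 13.6 and 7.58 CPM in the wildtype libraries. It was at 8.16, 2.78 and 2.02 CPM in the knockout libraries, where replicate 1 lay above the lowest wildtype library. Its log2 fold change of -1.40 (SE 0.56, 95% interval -2.72 to -0.08) had an unadjusted p of 0.041, and with 1 library left out the value ran from -1.06 without knockout replicate 3 to -2.25 without knockout replicate 1. The edgeR adjusted p was 0.207 in that last fit, and over all 6 such fits the unadjusted p was under 0.05 only without wildtype replicate 3 (0.0404) or without knockout replicate 1 (0.00089). Of the 12 astrocyte markers, Aqp4 and Gfap are given beside it. Aqp4 was at 193, 275 and 115 CPM in the wildtype and 78.3, 79.2 and 49.2 CPM in the knockout. Gfap was at 366, 512 and 236 CPM in the wildtype and 253, 273 and 144 CPM in the knockout. All 12 astrocyte and all 12 oligodendrocyte markers had negative log2 fold changes, 4 and 3 of them at an unadjusted edgeR p under 0.05, which 5.2% of all genes met. None of these was called by edgeR after adjustment. DESeq2 called 2 of the astrocyte and 1 of the oligodendrocyte markers, where it called 1.39% of all genes. All 9 central neuron, 11 skeletal muscle and 3 erythroid markers tested were negative as well. The other marker lists were mixed, with 13 of 20 spiral ganglion neuron markers positive. Of all genes tested, 48.9% were positive. The summed astrocyte list was at 2486, 3239 and 5740 CPM in the wildtype and 1998, 3428 and 2501 CPM in the knockout. It was highest in wildtype replicate 3, where Gria1 was the lowest of the wildtype libraries. Aqp4 and Gfap, unlike the sum, had their lowest wildtype level in that library. The part of astrocytes in the Gria1 values was not tested.

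Kainate receptor RNA was mostly Grik5, which took 60.2% to 74.2% of the class. Grik5 encodes a high affinity subunit that forms channels only with the low affinity subunits of Grik1 to Grik3. It lies at chr7:25009849-25072346 on the minus strand and stood at 54, 45.2 and 39.8 CPM in the wildtype and 46.8, 45.2 and 45.7 CPM in the knockout. The knockout libraries fell inside the wildtype range, and the log2 fold change was -0.01 (SE 0.15, 95% interval -0.36 to 0.34). Grik4, the other high affinity subunit, gave 26.3, 18.9 and 15.4 CPM and 23.9, 14.3 and 10.6 CPM, with overlapping groups and a log2 fold change of -0.31 (SE 0.34, 95% interval -1.13 to 0.50). Of the low affinity subunits, Grik3 ranged from 7.32 to 21 CPM, Grik2 from 4.64 to 9.22 CPM and Grik1 from 1.93 to 6.67 CPM over the 6 libraries, with no gap between the groups.

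Grin1, the obligatory NMDA receptor subunit that binds glycine, held 85.9% to 90.3% of the NMDA class per kilobase. It lies at chr2:25291181-25319187 on the minus strand, and measured 137, 94.1 and 80.4 CPM in the wildtype and 150, 108 and 111 CPM in the knockout. Replicate 1 was the highest library in both groups, the groups overlapped, and the log2 fold change was 0.24 (SE 0.24, 95% interval -0.33 to 0.81). The glutamate binding partners were far lower. Grin2c was at 10.6, 8.59 and 5.57 CPM in the wildtype and 7.33, 12.5 and 12 CPM in the knockout, with overlapping groups and a log2 fold change of 0.36 (SE 0.32, 95% interval -0.39 to 1.12). Grin2d reached 2.94 to 7.35 CPM, and Grin2b only 0.0351 to 0.448 CPM. Grin2a, a main partner of Grin1 in adult forebrain, had 12 counts in all. Grin3a lay at 3.14 to 5.10 CPM and Grin3b at 0.971 to 2.24 CPM. The exons of Grin1 overlap those of the antisense gene Grin1os over 29.9% of their bases and those of Grin3b overlap Tmem259 over 31.9%; the strand setting of the counting is not given in the sources used here, so reads of these pairs cannot be told apart.

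Of the delta receptor genes, which encode synaptic organisers related to the glutamate gated channels, Grid1 gave 5.03, 2.39 and 2.55 CPM in the wildtype and 5.39, 2.42 and 3.17 CPM in the knockout. Replicate 1 was the highest library of each group, the groups overlapped, and the log2 fold change was 0.14 (SE 0.43, 95% interval -0.88 to 1.16).

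Among the metabotropic glutamate receptors, Grm7 and Grm8 led. Both belong to the group III receptors, which couple to inhibitory G proteins and often sit on nerve terminals. Grm7 lies at chr6:110645581-111567230 on the plus strand and took 52.6% to 67.5% of the class. It measured 37, 39.4 and 25.5 CPM in the wildtype libraries and 40.6, 45.8 and 49.4 CPM in the knockout libraries. Every knockout library was above every wildtype library, with a log2 fold change of 0.41 (SE 0.19, 95% interval -0.05 to 0.87). That difference was 0.24 without wildtype replicate 3. Grm8 gave 23.6, 17.7 and 13.1 CPM and 22.6, 21.4 and 16.7 CPM, where the groups overlapped (log2 fold change 0.16, SE 0.25, 95% interval -0.42 to 0.75). Grm4, also of group III, was even across libraries at 3.45 to 4.78 CPM. Of group II, Grm3, a receptor known from astrocytes, was at 2.15, 3.73 and 0.632 CPM in the wildtype and 1.63, 1.23 and 1.10 CPM in the knockout, and Grm2 had 17 counts. Wildtype replicate 2 was the highest library for Grm3, as it was for Aqp4 and Gfap. Wildtype replicate 3, the lowest library for Grm3, was the highest for the summed astrocyte list (5740 CPM, against 3239 CPM in wildtype replicate 2). The part of astrocytes in the Grm3 values was not tested. Grm5, of group I, which couples to phospholipase C, was scarce at 0.132 to 0.556 CPM.

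Of the beta subunits of the GABA-A receptor, which opens a chloride channel, Gabrb2 was at 12, 3.49 and 0.503 CPM and at 6.55, 0.812 and 0.441 CPM, with replicate 1 the highest library of each group by a wide margin (log2 fold change -1.03, SE 1.30, 95% interval -4.13 to 2.06). Gabrb1 stayed at 0.453 to 1.46 CPM.

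The alpha subunits, which set the kinetics and drug response of the receptor, summed to only 1.02 to 3.48 CPM per kilobase. Gabra3 lies at chrX:72432681-72656848 on the minus strand and gave 2.03, 1.90 and 0.679 CPM in the wildtype and 2.56, 2.96 and 2.85 CPM in the knockout. Every knockout library lay above the wildtype libraries, with a log2 fold change of 0.86 (SE 0.43, 95% interval -0.17 to 1.89) that was 0.50 without wildtype replicate 3. Within the alpha class, a comparison chosen after the values were seen, Gabra3 made up 15.1%, 14.2% and 17.3% of the summed level per kilobase in the wildtype libraries and 27%, 29.2% and 32.2% in the knockout libraries. The shares did not overlap between the groups; no test was run on shares. Gabra2, Gabra4 and Gabra5 ranged over 0.526 to 3.26 CPM. Gabra6, known from cerebellar granule cells and cochlear nucleus, was read in wildtype replicate 2 at 0.723 CPM and knockout replicate 2 at 0.628 CPM, while the other 4 libraries held 0 to 0.0360 CPM.

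**Figure D3:**
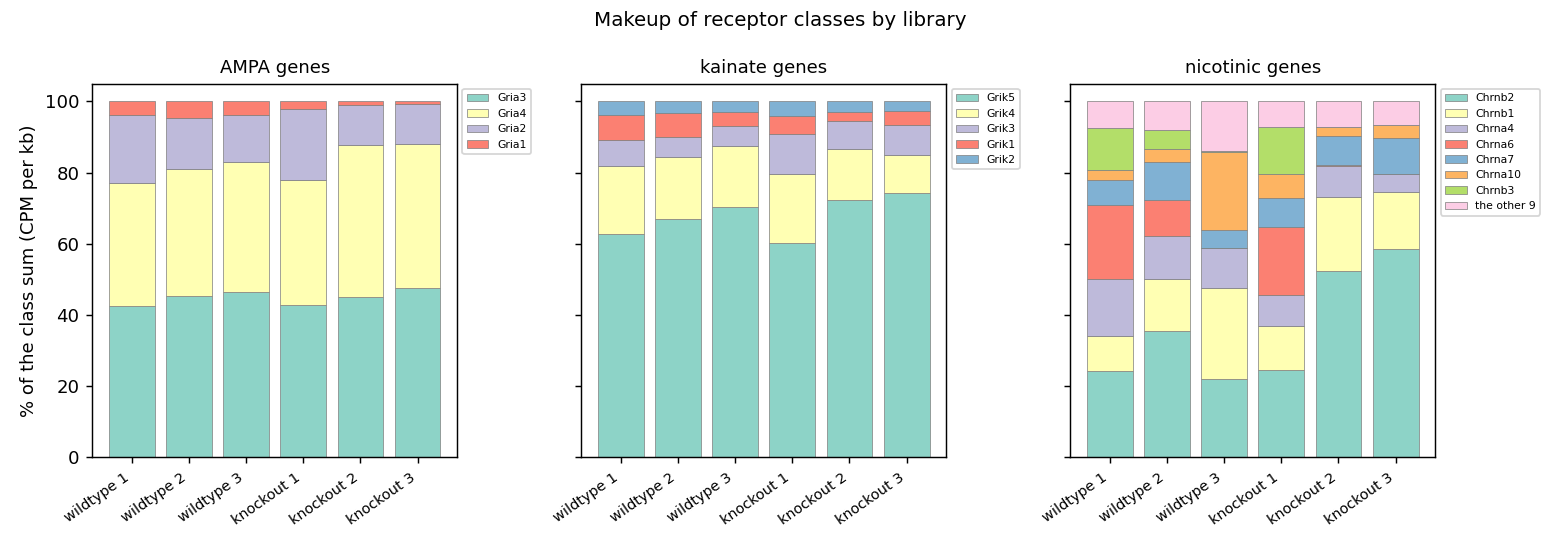
Share of each subunit in the summed CPM per kilobase of its class, 1 stacked bar per library, for the AMPA, kainate and nicotinic classes. Gria3 and Gria4 lead the AMPA class and Grik5 the kainate class in every library, while Chrna6 takes 20.7% and 19.3% of the nicotinic class in replicate 1 of the wildtype and of the knockout and 0.0820% in wildtype replicate 3.

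Of the other GABA-A subunits, Gabrg1, a gamma subunit known from glia and a few neuron groups, at chr5:70751047-70842617 on the minus strand, stood at 1.46, 1.15 and 0.562 CPM in the wildtype and at 0.448, 0.509 and 0.302 CPM in the knockout. Each knockout library was below each wildtype library, with a log2 fold change of -1.33 (SE 0.47, 95% interval -2.45 to -0.21) and an unadjusted p of 0.0261. Aqp4 was likewise lower in every knockout library, while Gfap and the summed astrocyte list overlapped between the groups; their part in this difference was not tested. Gabrd, the delta subunit of receptors outside synapses, was at 0.624, 0.668 and 0.468 CPM and at 0.857, 0.802 and 0.696 CPM, higher in every knockout library by a log2 fold change of 0.42 (SE 0.34, 95% interval -0.38 to 1.22). Gabrp, a subunit known from epithelia, was present in 3 of the 6 libraries and almost absent from the others: it was at 0, 0.0111 and 0.924 CPM in the wildtype and 4.71, 2.36 and 0.0232 CPM in the knockout, and the interval of its log2 fold change ran from -1.79 to 7.63. Gabre was even at 1.16 to 2.02 CPM and Gabrr2 at 0.339 to 0.617 CPM.

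The glycine receptor class was nearly all Glrb, which took 97.2% to 99.2% of it. Glrb encodes the beta subunit, which binds gephyrin and needs an alpha subunit to form a channel gated by glycine. It lies at chr3:80843599-80913660 on the minus strand, and was the most abundant receptor RNA of the nerve at 353, 420 and 447 CPM in the wildtype and 368, 534 and 530 CPM in the knockout. Wildtype replicate 3, the lowest library for 26 of the 54 genes tested, was the highest wildtype library for Glrb, and knockout replicate 1 lay inside the wildtype range. The log2 fold change was 0.23 (SE 0.20, 95% interval -0.25 to 0.71). Its alpha partners did not match this level: Glra3 was at 12.8, 8.17 and 11.3 CPM and 20.7, 8.49 and 11 CPM (log2 fold change 0.32, SE 0.36, 95% interval -0.55 to 1.18), and Glra4 at 0.0758 to 0.276 CPM. Glra1 and Glra2, the alpha subunits of the mature spinal cord and of the fetus, had 43 counts each. Gphn, the gephyrin gene, was at 51.1 to 64.3 CPM.

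The nicotinic genes ranged from subunits that varied little between libraries to subunits that were present in some libraries and nearly missing from others. Chrnb2, the beta subunit of the common neuronal receptor, at chr3:89746195-89764632 on the minus strand, was at 82.7, 61.4 and 45.1 CPM in the wildtype and 79.3, 65.5 and 72.1 CPM in the knockout. Its groups overlapped, with a log2 fold change of 0.20 (SE 0.23, 95% interval -0.35 to 0.74); its exons overlap those of Adar on the other strand over 16.4% of their bases. Chrna4, the alpha subunit that most often pairs with it in brain, gave 31.2, 12 and 13 CPM and 16, 6.21 and 3.59 CPM (log2 fold change -1.12, SE 0.62, 95% interval -2.61 to 0.37), with wildtype replicate 1 the highest. Chrna7, whose subunit forms channels alone, gave 5.95, 4.56 and 2.62 CPM and 6.41, 2.60 and 3.08 CPM.

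Chrna6 and Chrnb3, subunits known from midbrain dopamine and retinal neurons, were high in replicate 1 of both groups, intermediate in wildtype replicate 2 and close to 0 in the other 3 libraries. They lie 3481 bases apart on chromosome 8 of GRCm38, within chr8:27368711-27413944. Chrna6 was at 24.6, 6.03 and 0.0585 CPM in the wildtype and 21.8, 0.0758 and 0 CPM in the knockout. Chrnb3 was at 31.2, 7.09 and 0.140 CPM and 32.6, 0.0108 and 0.0232 CPM. For both genes the same libraries were high. The log2 fold changes, -0.49 and -0.24, had intervals from -6.03 to 5.05 and from -5.85 to 5.38. Leaving out 1 library at a time moved them from -7.99 to 1.26 and from -9.45 to 1.58, the low ends without knockout replicate 1 and the high ends without wildtype replicate 1. Chrna6 made up 20.7% and 19.3% of the nicotinic level per kilobase in replicate 1 of the wildtype and of the knockout, and 0.0820% in wildtype replicate 3. The 3 genes of the ganglionic receptor, Chrna5, Chrna3 and Chrnb4, lie side by side within chr9:54980880-55048779. In replicate 1 of both groups their levels were lower than those of Chrna6 and Chrnb3. Chrna5 was at 3.01, 0.545 and 0.0117 CPM and 1.90, 0.0542 and 0.0116 CPM. Chrna3 was at 1.49, 0.178 and 0.0117 CPM and 0.633, 0.0108 and 0.0696 CPM. Chrnb4 was at 0.756, 0.456 and 0.129 CPM and 1.83, 0.184 and 0.197 CPM. Replicate 1 was the highest library of each group for all 3. In all, 8 of the 54 genes tested had a highest library at least 16 times the lowest, where 2.35% of all genes did. Chrna3, Chrna5, Chrna6, Chrnb3, Gabrb2 and Gabrp were among them, named after their values were seen. The summed central neuron marker list spanned less, at 548, 457 and 282 CPM in the wildtype and 515, 340 and 321 CPM in the knockout. That list includes the receptor gene Gabra6 and also Calb1, whose values are given under the other observations. Its part in these values was not tested.

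**Figure D4:**
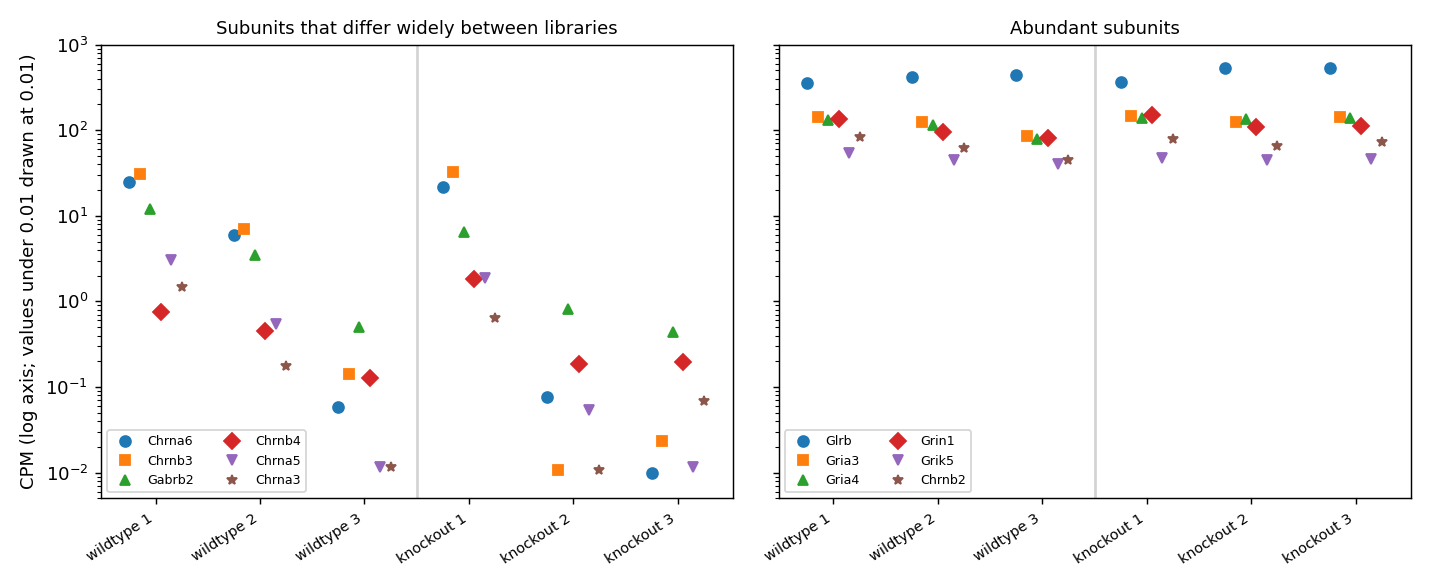
CPM on a log axis in each of the 6 libraries, 1 point per library, for 6 receptor genes with a wide range between libraries (left) and 6 abundant ones (right). Chrna6 and Chrnb3 lie above 20 CPM in replicate 1 of both groups and below 0.2 CPM in wildtype replicate 3 and in knockout replicates 2 and 3.

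RefSeq promoter windows of 250 bases before to 50 bases after the start were at hand for 46 of the 66 genes (GRCm38.p6, 54 windows). The windows of Chrna3 and Chrnb4, of the chromosome 9 cluster, are shown up to the start because both genes were highest in replicate 1 of each group; these stretches lie on the minus strand, at chr9:55026563-55026812 and chr9:55048545-55048794. Printed 5′ to 3′ along the gene, capitals mark matches to an SP1 box (GGGCGG), an E-box (CAGCTG) or GGACAG, a part of the RE1 element, searched on both strands.
Chrna3: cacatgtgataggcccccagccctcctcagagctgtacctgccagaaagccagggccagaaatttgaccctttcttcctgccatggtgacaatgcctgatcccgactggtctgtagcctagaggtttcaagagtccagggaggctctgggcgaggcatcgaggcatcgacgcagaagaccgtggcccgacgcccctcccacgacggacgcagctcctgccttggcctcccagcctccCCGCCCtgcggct
Chrnb4: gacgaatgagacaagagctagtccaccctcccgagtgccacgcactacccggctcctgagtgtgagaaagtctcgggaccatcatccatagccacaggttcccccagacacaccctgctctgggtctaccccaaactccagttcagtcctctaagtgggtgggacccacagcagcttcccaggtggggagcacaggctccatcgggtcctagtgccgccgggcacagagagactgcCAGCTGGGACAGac
The Chrna3 window held an SP1 box 13 bases before the start, a motif found in 35.7% of all 32851 windows and in 48.1% of the receptor windows. The Chrnb4 window held an E-box 14 bases before the start and GGACAG 8 bases before it, found in 16.3% and 22.2% of all windows and in 13% and 35.2% of the receptor windows. They do not overlap each other. The Chrna3 window held neither of these. Chrna5, their neighbour, had 2 windows: in 1 no motif was found, and the other held SP1 boxes 127, 92, 71 and 48 bases and GGACAG 236 and 112 bases before the start. The cAMP response element TGACGTCA and the octamer ATGCAAAT, present in 1.79% and 1.74% of all windows, were in 0 of the 54 receptor windows. The TATA box TATAAA was in 11.1% of receptor windows and 13.6% of all, and the left part of RE1, TTCAGCACC, in 1.85% and 0.371%.

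The hair cell subunits Chrna9 and Chrna10 were highest in wildtype replicate 3. Chrna9 was at 0.840, 0.579 and 3.44 CPM in the wildtype and 0.738, 0.303 and 0.348 CPM in the knockout, with a log2 fold change of -1.81 (SE 0.77, 95% interval -3.65 to 0.04). Chrna10 was at 2.94, 1.98 and 13.5 CPM and 6.80, 0.953 and 1.36 CPM, with a log2 fold change of -1.02. In wildtype replicate 3 Chrna10 made up 21.9% of the nicotinic level per kilobase. Otof, a hair cell gene needed for transmitter release, was at 24.6, 20.3 and 84.5 CPM in the wildtype and 43.9, 21.8 and 30.0 CPM in the knockout. The 12 hair cell markers summed to 121, 91.6 and 344 CPM and to 356, 90.0 and 118 CPM; their part in the Chrna9 and Chrna10 values was not tested. The exons of Chrna10 overlap those of Art1 on the opposite strand over 40.8% of their bases. Art1 was at 19.6, 8.52 and 0.830 CPM in the wildtype and 10.6, 1.26 and 2.47 CPM in the knockout, lowest where Chrna10 was highest; without the strand setting, reads of the pair cannot be told apart.

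Subunits of the muscle type receptor were read at low levels. Chrnb1, its beta subunit, at chr11:69784036-69795943 on the minus strand, was at 8.70, 6.48 and 13.5 CPM in the wildtype and 10.3, 6.73 and 5.07 CPM in the knockout (log2 fold change -0.38, SE 0.37, 95% interval -1.26 to 0.51). Chrna1, the alpha subunit that carries the acetylcholine site, was even at 3.06, 2.53 and 2.88 CPM and 4.4, 2.56 and 2.15 CPM (log2 fold change 0.10). Chrne, the subunit of the adult endplate, at chr11:70614883-70619216 on the minus strand, was at 0.480, 0.501 and 1.37 CPM in the wildtype and 0.145, 0.314 and 0.290 CPM in the knockout. Each knockout library lay below each wildtype library, with a log2 fold change of -1.64 (SE 0.59, 95% interval -3.04 to -0.24) and an unadjusted p of 0.0281. The value was -0.97 without wildtype replicate 3. Chrng, the fetal subunit, was at 0.0234 to 0.151 CPM, and Chrnd had 14 counts, all in wildtype replicate 2. The 12 skeletal muscle markers summed to 12.6, 52.5 and 12.4 CPM in the wildtype and 12.4, 17.5 and 15.6 CPM in the knockout, and Ckm stood at 0.0659 to 1.80 CPM; their part in the Chrne values was not tested.

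The promoter windows of Chrna1, Chrne and Chrng are shown because the E-box, the site bound by muscle regulatory factors, was in 3 of the 4 muscle type windows, beside 0 of 18 glutamate, 1 of 19 GABA-A and 1 of 4 glycine receptor windows. Of all 13 nicotinic windows, these 4 included, 5 held it, among them those of Chrna9 and Chrnb4. The 250 bases before the start lie at chr2:73580339-73580588 on the minus strand, chr11:70619195-70619444 on the minus strand and chr1:87205561-87205810 on the plus strand. Capitals mark the E-box CAGCTG and, in Chrng, also GGACAG.
Chrna1: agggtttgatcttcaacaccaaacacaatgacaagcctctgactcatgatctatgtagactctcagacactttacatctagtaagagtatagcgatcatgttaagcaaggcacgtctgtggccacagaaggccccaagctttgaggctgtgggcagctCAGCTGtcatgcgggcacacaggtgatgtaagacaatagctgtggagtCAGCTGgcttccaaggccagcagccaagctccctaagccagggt
Chrne: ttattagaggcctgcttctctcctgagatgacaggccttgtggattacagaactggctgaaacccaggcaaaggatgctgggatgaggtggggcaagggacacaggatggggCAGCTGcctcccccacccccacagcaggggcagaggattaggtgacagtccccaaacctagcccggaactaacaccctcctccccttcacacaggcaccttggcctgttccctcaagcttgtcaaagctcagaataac
Chrng: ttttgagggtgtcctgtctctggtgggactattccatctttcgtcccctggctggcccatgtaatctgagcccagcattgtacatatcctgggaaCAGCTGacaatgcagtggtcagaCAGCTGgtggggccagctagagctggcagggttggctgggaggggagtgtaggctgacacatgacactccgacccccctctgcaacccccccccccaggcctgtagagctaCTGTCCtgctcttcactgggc
The E-boxes began 92 and 44 bases before the start in Chrna1, 138 bases before it in Chrne, and 155 and 132 bases before it in Chrng. A match describes the letters only and was found in 16.3% of all windows.

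Genes that work with these receptors were read from 10 lists holding 103 genes, of which 97 were tested. None passed edgeR's or DESeq2's test, and the lowest adjusted p in edgeR was 0.683. At an unadjusted p under 0.05 there were 5, or 5.15%, beside 5.2% of all genes. Their median log2 fold change was -0.04, with 42 positive and 55 negative values. Among the 15 AMPA auxiliary genes tested, Gsg1l, a subunit that slows recovery of the channel, was at 0.912, 0.812 and 0.679 CPM in the wildtype and 1.99, 1.66 and 1.25 CPM in the knockout. Its log2 fold change was 1.03 (SE 0.32). Cacng8, a TARP that brings AMPA receptors to the membrane, had a log2 fold change of -0.98. Neither passed after adjustment. Olfm1 and Cpt1c, the most abundant of that list, were at 99 ± 42.9 and 54.2 ± 9.39 CPM (SD, n = 3) in the wildtype and 104 ± 7.42 and 59.5 ± 8.80 CPM in the knockout.

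Of the 24 scaffold genes at glutamate synapses, 10 had positive and 14 negative log2 fold changes. Homer1, which links metabotropic receptors to the scaffold, was at 27, 22.1 and 18.9 CPM in the wildtype and 32, 33.5 and 29.8 CPM in the knockout (log2 fold change 0.49, SE 0.16). Dlg2 was at 188 ± 32.6 and 210 ± 12 CPM (SD, n = 3 in each group) and Dlg4, the gene of PSD-95, at 93 ± 25.6 and 99.5 ± 3.45 CPM. Mdga1, a suppressor of neuroligin contacts on the inhibitory list, was at 846 ± 348 and 1077 ± 121 CPM. On the list drawn up for NMDA and kainate receptor partners, Grina was at 383 ± 60.1 and 349 ± 13.4 CPM, and Ncald at 20.0 to 43.3 CPM over the 6 libraries. A place on that list does not make either gene an auxiliary subunit. Lynx1, a brake on nicotinic receptors, was at 366 ± 100 CPM in the wildtype and 307 ± 20.7 CPM in the knockout, and Agrn, which clusters muscle receptors, at 201 ± 23.2 and 177 ± 40.0 CPM.

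No gene of transmitter supply passed the test either. Slc17a7, the vesicular glutamate transporter of spiral ganglion neurons, was at 498 ± 198 CPM in the wildtype and 661 ± 184 CPM in the knockout. Slc1a2, the astrocyte glutamate transporter, was at 112 ± 31.8 and 68.6 ± 12.4 CPM (log2 fold change -0.71, unadjusted p 0.0271 in edgeR). The GABA transporter Slc6a13 was at 112 ± 51.7 CPM in the wildtype and 129 ± 66 CPM in the knockout. Slc12a2, which loads cells with chloride, was at 401, 492 and 2414 CPM in the wildtype and 424, 769 and 471 CPM in the knockout, with only wildtype replicate 3 high. Slc12a5, which extrudes chloride, was at 11, 11.7 and 1.75 CPM and at 6.29, 4.16 and 1.80 CPM, the same library being the lowest. Gabbr1, of the metabotropic GABA receptor, was at 199 ± 63 CPM in the wildtype and 199 ± 5.31 CPM in the knockout. Its partner Gabbr2 was at 152, 44.2 and 53.2 CPM and at 122, 36.8 and 36.3 CPM, high in replicate 1 of both groups. Ache, which breaks down acetylcholine, was at 83 ± 45 and 82.8 ± 9.72 CPM. Chat and Slc18a3, the genes that make and load acetylcholine, had 0 counts in all 6 libraries, which allows up to 0.0395 CPM in the shallowest.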

How the data were processed

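Each library was RNA from the auditory nerve of 1 mouse; that replicates are separate mice is taken from the labels. Gene counts were deposited by the authors in 1 table of 24067 rows, with columns of normalised signal, log2 fold changes, a Wald score and p-values; HTSeq, DESeq2 and the build mm10 are named in the submitters' processing notes, with no versions. No label or header names the aligner or the strand setting. The deposited columns other than counts served only for the authors' own adjusted p.

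The members and all gene lists were chosen with earlier results of these data known. The 5 rows that repeated a symbol held the same counts as the first row of that symbol and were dropped. The main test was edgeR 4.0.16 (filterByExpr, TMM, robust quasi-likelihood, 2-sided, Benjamini-Hochberg over 16722 genes, threshold 0.05) in R 4.3.3, run on simulated data first. The filter asks for enough counts in 3 libraries, so a gene can pass through 1 group. DESeq2 1.42.0 and limma 3.58.1 (voom) were alternatives, with another scaling, other filters, a replicate block and each library left out. Exon lengths come from GENCODE on GRCm38, promoter windows from RefSeq.

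Genes described in full were the 2 highest per kilobase in each class and those whose groups did not overlap; Chrna3, Chrna5, Chrna6, Chrnb3 and Gria1 were added after their values were seen, and all others are given by range or level. From each partner list, the 2 of highest count are given, and those at an unadjusted p under 0.05 were added. A few genes that these rules name are not reported here. Replicate numbers are those of the sample titles. The names of the knockout count columns carry partly other numbers. Replicates that share a number in the titles were correlated in their deviations from the group means at 0.44, 0.23 and -0.15. The numbers were not taken to pair the mice. No 2 libraries agreed within sampling noise.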

Additional observations from a re-analysis of the deposited data

How the results depend on the processing

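No receptor gene and no partner gene was called under any of the 12 alternatives, and the lowest adjusted p of a receptor gene was 0.207, without knockout replicate 1. The number of all genes called was 23 in edgeR, 252 with DESeq2, 3 with the replicate block, and 3 to 14 with 1 library left out; these counts moved by more than 1.5 times, and the cause was not tested. With the replicate numbers of the titles as a block, 0 receptor genes were called. Not every library correlated best with the library of its own number, and the numbers were not used to pair mice. The log2 fold change of Vcan was -1.20 in DESeq2, past the threshold, and -1.60 to -1.02 with 1 library left out. The median log2 fold change of the receptor genes ran from -0.37 to 0.23 with 1 library left out. The level of Chrnb2 was 8.11 CPM per kilobase over the union of exons and 10.6 over the longest transcript. Among the genes described in full, a log2 fold change turned sign in 16 fits of a gene under an alternative, all with 1 library left out and some for the same gene. The ranges of these genes were -0.0032 to 0.44 for Chrnb2, -3.08 to 0.38 for Gabrb2, -0.14 to 0.56 for Glra3, -0.25 to 0.56 for Grid1, -0.12 to 0.11 for Grik5 and -0.0332 to 0.40 for Grm8. They were -7.99 to 1.26 for Chrna6, -9.45 to 1.58 for Chrnb3, -5.10 to 1.22 for Chrna5 and -3.76 to 1.29 for Chrna3. Depth limits the rarest subunits: 3 counts are 0.0325 to 0.0395 CPM, depending on the library.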

Other observations

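Several genes outside the receptor families were highest in replicate 1 of each group, as Chrna6 and Chrnb3 were. They are given here as values chosen after they were seen. Kcnc2, a fast potassium channel gene, was at 103, 30.9 and 5.94 CPM in wildtype replicates 1, 2 and 3 and at 86.5, 5.95 and 3.10 CPM in knockout replicates 1, 2 and 3. Kcnq5, of the M current, was at 32.1, 7.18 and 0.608 CPM in the wildtype and 24.1, 0.650 and 0.557 CPM in the knockout. Replicate 1 of each group was the highest library for both channels, as it was for Chrna6. Tac1, the substance P precursor, was at 19.6, 10.2 and 0.175 CPM and at 7.39, 0.0433 and 0.0348 CPM. Unlike Chrna6, it was higher in wildtype replicate 2 than in knockout replicate 1. Pcp4, a calmodulin regulator, was at 199, 110 and 27.4 CPM and at 139, 9.07 and 11.8 CPM. Calb1, the calbindin gene, held more in the low libraries, with 164, 125 and 14.9 CPM in the wildtype and 158, 54.2 and 54.8 CPM in the knockout. It is also on the central neuron marker list, so its counts are part of that sum. No test was run on these profiles, and their source was not tested.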
